A study of Mus musculus with 4 samples.

Results

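Pitx1 ChIP peaks over a 1.1 Mb window around the Pitx1 gene itself are described, on chromosome 13 from 55500000 to 56600000 (mouse build mm9). The window was set by position and not by the peak values, but with earlier results of these data known. It takes in the gene, stated to lie at about 55.93 Mb, and its flanks up to the side of Neurog1, which holds a distal enhancer known as Pen. A peak was a member when its midpoint lay in the window, and a replicated region was the union of peaks from both lists that overlapped by at least 1 bp. The window held 24 of the 14753 peaks of replicate 1, 44 of the 25027 peaks of replicate 2, and 19 of the 10274 replicated regions.

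Pitx1 is a homeodomain transcription factor of the hindlimb bud, where it is needed for hindlimb identity and for normal growth of the leg skeleton; the forelimb bud does not normally make it. Its gene is known to be controlled in the hindlimb by distal enhancers, among them Pen, which has activity in both forelimb and hindlimb. Transcription factors that specify a tissue often bind around their own genes, which makes the locus of interest for a map of Pitx1.

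The series holds 4 libraries from embryonic hindlimb buds of wild-type ICR mice at E11.5. Chromatin was immunoprecipitated with an antibody against Pitx1 in 2 of them, and the other 2 are input chromatin with no antibody and enter no comparison here. Material from 3 ChIPs was used for the libraries, and whether the replicates are different litters is not in the labels, so what separates them may be technical. No reads are in the peak lists and library depth is therefore unknown. A peak called in 1 list only may lie just below the threshold of the other. The lists differ in kind: over the autosomes the median peak was 798 bp wide in replicate 1 and 456 bp in replicate 2, which has more peaks. Each peak has a score, the authors' own value from the peak caller, used here only to rank peaks within a list. No peak of either list scored below 50. No control antibody enters the comparison, so a region named for Pitx1 means one recovered with this antibody.

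In the RefSeq gene table, which is of another build and gives order only, Pitx1 lies between Catsper3, a sperm ion channel gene, on one side and Macroh2a1, a histone variant gene, on the other. From Pitx1 towards Neurog1, a proneural transcription factor gene, the protein-coding genes in between number 2, Macroh2a1 and Tifab. Cxcl14, a chemokine gene, follows beyond Neurog1. Coordinates on Neurog1's side of Pitx1 are the higher ones. An annotation of mm9 was not used here, so peaks are placed by distance from the stated gene position, and no peak is assigned to a promoter, exon or intron. That position is given to about 10 kb, so distances shorter than this only say that a peak is at or beside the gene.

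The Pitx1 locus was densely covered by Pitx1 peaks in both libraries. The 19 replicated regions made 17.3 per Mb (95% exact Poisson interval 10.4 to 27.0), against 4.11 per Mb over the other autosomal sequence, a ratio of 4.21 (95% exact interval 2.53 to 6.57). In replicate 1 alone the density was 21.8 per Mb against 5.89 (ratio 3.70, interval 2.37 to 5.51). In replicate 2 alone it was 40 per Mb against 10.004 (ratio 4.00, interval 2.90 to 5.37). All of these intervals lay above 1, as did that against the rest of chromosome 13, where 551 replicated regions gave 4.62 per Mb (ratio 3.74, interval 2.23 to 5.89). The size depends on the window: widened by 500 kb on each side, it gave a ratio of 2.55 (interval 1.60 to 3.87). The intervals cover counting error only, treat peaks as independent, and are too narrow where peaks cluster.

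Few stretches of the same length held as many. Among 2235 consecutive autosomal windows of 1.1 Mb, 38 had 19 or more replicated regions, or 1.7%, and 26 had more than 19. The median window held 3 (quartiles 1 and 6), and the fullest held 37. By replicate 1 peaks, 1.79% of windows held 24 or more, and by replicate 2 peaks, 0.671% held 44 or more. These shares describe how common such counts were in these lists, and some of the windows counted overlap the locus itself. In the distribution of counts per window the locus sits in the upper tail without being its extreme.

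**Figure D1:**
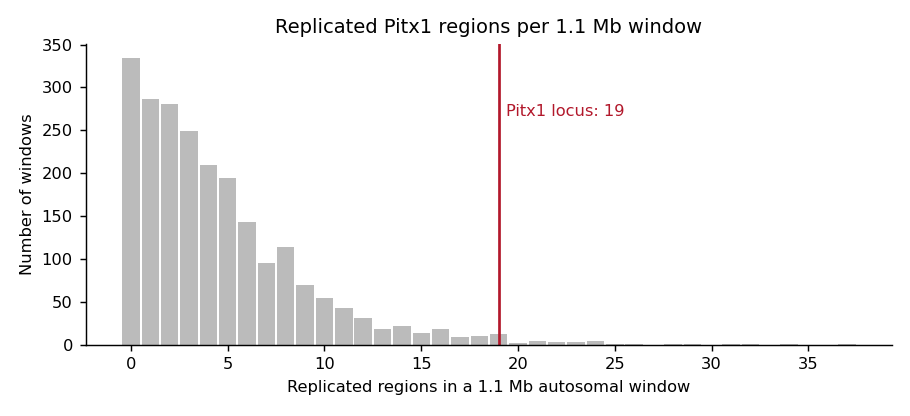
Number of consecutive autosomal windows of 1.1 Mb (vertical axis) by the number of replicated Pitx1 regions in each (horizontal axis). The red line marks the 19 regions of the Pitx1 locus, well above the median of 3 and below the fullest window at 37.

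The locus also stood out by length of sequence covered, which follows from the number and width of the same regions. Replicated regions covered 22416 bp of the window, or 2.04%, against 0.390% of the autosomes. Replicated regions in the locus were also wide, with a median of 1188 bp (range 606 to 2043 bp) against 863 bp over the autosomes; this difference in width was not tested.

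Regions were unevenly placed along the locus. No replicated region lay in the first 335 kb of the window. From 55.5 to 55.8 Mb replicate 1 had 0 peaks and replicate 2 had 4 weak ones with scores from 55.74 to 69.56. The last replicated region before the window was 1407 kb from the first in it, a distance reached by 2.15% of the 10126 autosomal gaps between neighbouring regions. From 55.8 Mb on, every 100 kb bin held replicated regions, with 3, 2, 3, 2, 3, 2, 3 and 1 in order. The 19 regions thus stretched over 688 kb from first midpoint to last, with a median gap of 26.7 kb (range 3.80 to 114.6 kb) against 88.7 kb over the autosomes. In the 500 kb after the window the density was 6 per Mb from 3 regions (ratio to the autosomes 1.46, interval 0.301 to 4.27), and in the 500 kb before it the count was 0.

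More regions lay on the Neurog1 side than on the Catsper3 side, but the difference was within counting error. There were 15 replicated regions in the 670 kb above the gene position (22.4 per Mb) and 4 in the 430 kb below it (9.30 per Mb), a ratio of 2.41 with an exact interval of 0.767 to 9.96. Against the autosomes, the Neurog1 side had a ratio of 5.45 (interval 3.05 to 8.997) and the other side 2.26 (interval 0.617 to 5.80). On that other side each list alone had an interval above 1, with a ratio of 3.15 in replicate 1 (8 peaks, interval 1.36 to 6.22) and 2.79 in replicate 2 (12 peaks, interval 1.44 to 4.87). In replicate 1, however, 5 of these 8 peaks were a single run of 7.23 kb. Both lists also counted here peaks less than 10 kb below the gene position, and the side of these is uncertain. An excess on this side is therefore not settled.

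**Figure D2:**
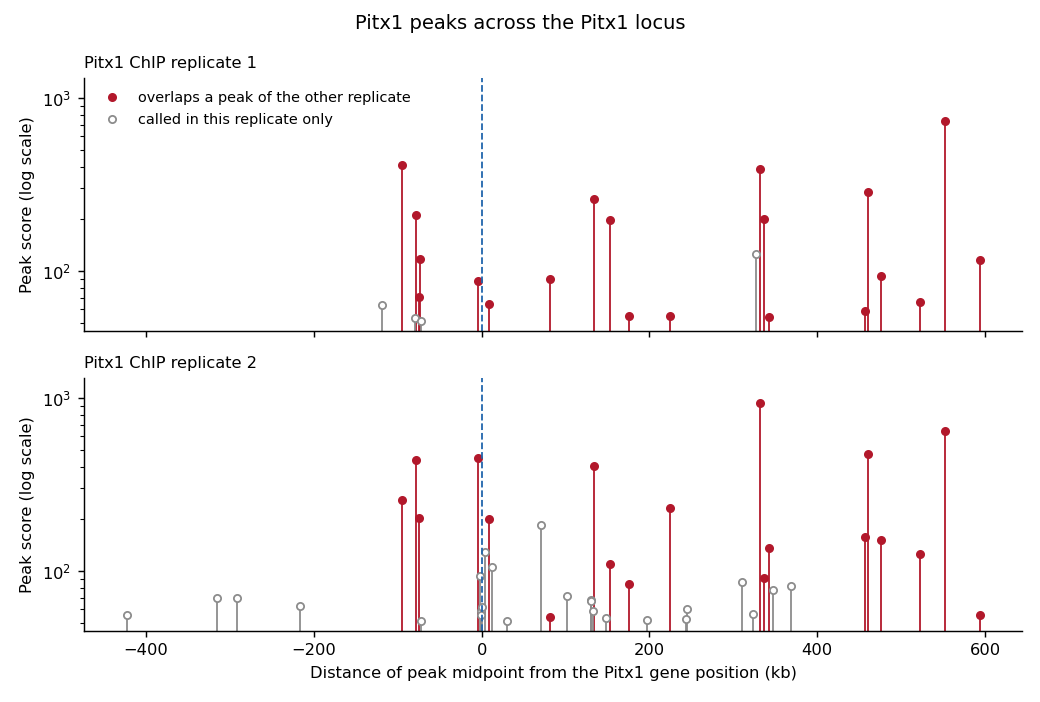
Score of each Pitx1 peak (vertical axis, log scale) by distance of its midpoint from the Pitx1 gene position in kb (horizontal axis, dashed line at 0), replicate 1 above and replicate 2 below. Red filled points overlap a peak of the other replicate and open grey points do not; red points run from 94.4 kb below the gene position to 594 kb above it, and those at 331 and 553 kb are the strongest of replicate 2 and replicate 1.

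Beside the gene position replicate 2 had more Pitx1 peaks than replicate 1, and both counts were above the autosomal rate, as in the window as a whole. Within 25 kb of the gene position replicate 1 had 2 peaks, where its autosomal rate gives 0.295, and replicate 2 had 8, where its rate gives 0.501. Within 50 kb replicate 1 still had only 2 peaks, where its rate gives 0.590. No interval was computed for these small counts. Whether peaks were denser here than in the rest of the window was not tested. Within 20 kb of the gene position replicate 1 had 2 peaks, covering 1897 bp, and replicate 2 had 8, covering 6101 bp. The replicated region nearest the gene position, 4.08 kb below it, ran from 55925212 to 55926637, with a score of 87.55 in replicate 1 (rank 6548) and 452.03 in replicate 2 (rank 1084). The other, 8.69 kb above, ran from 55938023 to 55939350 and scored 63.98 in replicate 1 (rank 10548) and 199.84 in replicate 2 (rank 4197). Both were therefore ranked better in replicate 2. Among the 10145 autosomal replicated regions, where 0 is the strongest, the nearer region was at percentile 56.8 by replicate 1 and 10.5 by replicate 2. A difference of at least that size, 46.3 percentile points, was found in 10.2% of autosomal replicated regions.

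Between and beside these regions, replicate 2 alone had 6 further peaks. Their scores were 93.42, 58.84, 55.70, 61.65, 128.52 and 104.72 in order along the chromosome, all outside the best 10% of the list. Together with the replicated ones they formed a run of 8 peaks, each under 10 kb from the next, from 55925212 to 55943096 (17.9 kb). Replicate 2 had 25 runs of 8 or more among its 1127 autosomal runs of at least 3, and the longest had 23 peaks. Replicate 2 is the list with more and narrower peaks, and the part of this in the run was not tested.

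**Figure D3:**
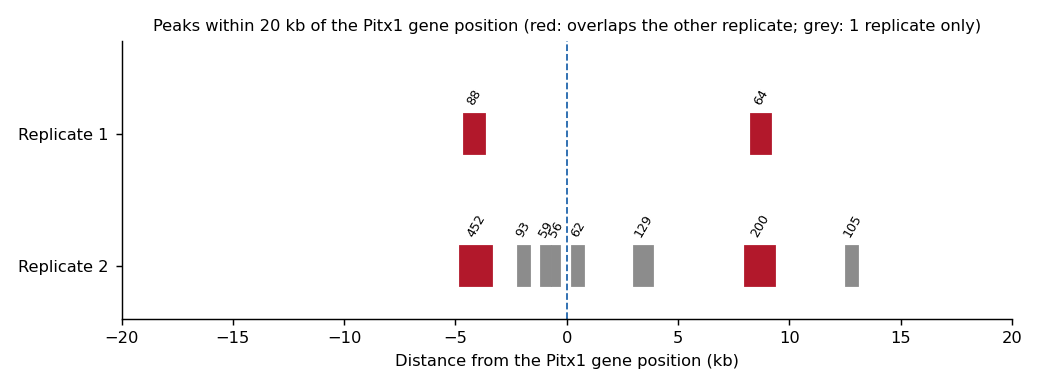
Peaks within 20 kb of the Pitx1 gene position in each replicate, drawn to scale by distance in kb, with the score above each. The 2 replicated peaks (red) are present in both rows, while the 6 grey peaks appear only in replicate 2.

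On the Catsper3 side, Pitx1 peaks gathered at 74.3 to 94.4 kb from the gene position. The outermost region, 94.4 kb below the gene position, ran from 55835000 to 55836187 and scored 411.12 in replicate 1 (rank 374) and 257.57 in replicate 2 (rank 2836). The next, 78.1 kb below, ran from 55851220 to 55852529 and scored 209.55 in replicate 1 (rank 1595) and 436.46 in replicate 2 (rank 1171). The order of these neighbours was thus opposite in the lists. A region from 55854915 to 55856427, 74.3 kb below, joined 2 peaks of replicate 1 to 1 of replicate 2, with best scores of 117.15 and 201.06. Weak peaks of 1 library lay among and beside these regions, among them the replicate 1 peak from 55850281 to 55851153 (score 53.17), 0.166 kb from the nearest replicate 2 peak.

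On the Neurog1 side the first strong region, 134 kb from the gene position, ran from 56063196 to 56065064 (1869 bp) and scored 258.89 in replicate 1 (rank 1072) and 407.42 in replicate 2 (rank 1321). Its neighbour at 153 kb, from 56082194 to 56082916, was among the better peaks of replicate 1 (score 197.38, rank 1792) but not of replicate 2 (score 109.39, rank 9459). Both regions were thus recovered in each library, but only the first was in the best 10% of each list.

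Farther out, at 331 to 342 kb, lay the only run of 3 replicated regions under 10 kb apart in the window, from 56260270 to 56272709 (12.4 kb). Its first region, from 56260270 to 56262312, was the widest in the locus at 2043 bp and the strongest there in replicate 2, with a score of 940.97 (rank 193), against 387.98 in replicate 1 (rank 430). The second, from 56265670 to 56266402, scored 198.49 in replicate 1 (rank 1763) and 91.01 in replicate 2 (rank 11888). The third was weak in replicate 1 (54.10) and scored 135.49 in replicate 2. So 1 strong region stood beside weaker neighbours that the lists ranked differently. The best-scoring peak of replicate 1 without a partner, from 56256202 to 56257001 (score 124.81, rank 3820), was also here, 2.59 kb from the nearest replicate 2 peak.

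The most distant regions included the strongest of the locus by summed rank. It lay 553 kb from the gene position, from 56481840 to 56483595, and scored 733.64 in replicate 1 (rank 64) and 643.66 in replicate 2 (rank 501). At 461 kb, the region from 56390328 to 56391462 scored 285.20 (rank 878) and 474.53 (rank 976). At 476 kb, the region from 56405822 to 56407081 scored 93.75 (rank 5921) and 151.73 (rank 6211). The lists placed each of these 3 regions within 5 percentile points of each other. For the other 3 regions of this stretch the percentiles differed, at 87.5 in replicate 1 and 47.8 in replicate 2 for the one at 457 kb, 78.3 and 58.5 at 522 kb, and 39.7 and 96.0 at 594 kb. Of the 5 strongest regions by summed rank, the median distance from the gene position was 331 kb. Which of the regions on this side, if any, is the Pen enhancer was not determined, because its position in mm9 is not in the files used here.

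The other 7 replicated regions were all above the gene position, from 81.5 to 594 kb away, and had the highest sums of ranks, which is how they were set apart. Their scores ran from 54.10 through a median of 58.68 to 116.19 in replicate 1, and from 53.99 through 125.89 to 230.41 in replicate 2. They include the third member of the run described above. In a single list some scored above regions named earlier, such as the one at 224 kb with 230.41 in replicate 2 (54.70 in replicate 1) and the one at 594 kb with 116.19 in replicate 1 (55.26 in replicate 2).

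By score, the locus held a wide range of regions and was not uniformly strong. The median percentile of the 19 by summed rank was 46.0, against 50 over all autosomal regions, and percentiles ran from 1.98 to 92.3. Ranks were summed without scaling to list length, so replicate 2, with the longer list, weighs more in this sum. By replicate 1 alone the median percentile was 39.7, and by replicate 2 alone it was 36.3. Of the 19, 6 were in the strongest 25% of the autosomal ranking, 4 in the next 25%, 6 in the next and 3 in the weakest. In the best 10% by summed rank were 4 of 19 (21.1%, 95% exact interval 6.05 to 45.6%), against 10% over the autosomes. In replicate 1 the peaks of 5 of the 19 were in the best 10% of their list (26.3%, interval 9.15 to 51.2%), against 14.4% of autosomal replicated regions. For replicate 2 these were 6 of the 19 (31.6%, interval 12.6 to 56.6%), against 23.1%. Each interval contains the autosomal share, so an excess of strong regions was not detectable with 19 regions. Over all peaks of the window, replicated or not, 5 of 24 in replicate 1 (20.8%, against 10.1%) and 6 of 44 in replicate 2 (13.6%, against 10%) were in the best 10%, again with intervals that contain the autosomal shares (7.13 to 42.2% and 5.17 to 27.4%).

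The lists ranked the regions of the locus only partly alike. Spearman's rho between scores was 0.523 over the 19 regions and 0.559 over the 10145 autosomal regions, as a description across regions that share their libraries. The median difference in percentile between lists was 22.2 points in the locus and 16.3 over the autosomes. By percentile among replicated regions, 8 of the 19 ranked better in replicate 1 and 11 in replicate 2. The 4 regions in the best 10% by summed rank were in the best 10% of each list too, which a low summed rank makes likely.

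**Figure D4:**
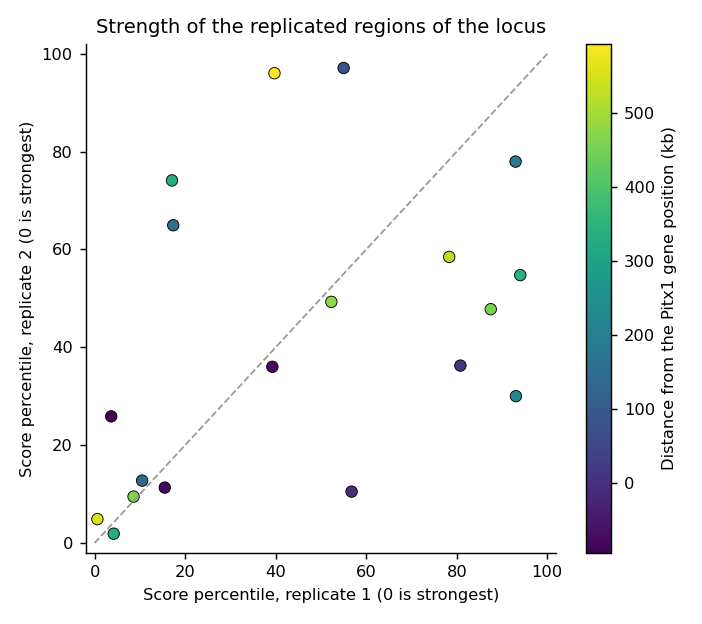
Score percentile among autosomal replicated regions in replicate 1 (horizontal axis) and replicate 2 (vertical axis) for the 19 regions of the Pitx1 locus, where 0 is the strongest, coloured by distance from the gene position in kb. Points on the dashed line have equal percentiles; the 4 strongest regions sit close to it at the lower left and many of the others lie far from it.

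Midpoints of partner peaks in the locus differed by a median of 63 bp (range 5 to 353.5 bp), against 60.5 bp over the autosomes. Where a list had more than 1 peak in a region, only its best-scoring peak was compared. Replicate 1 peaks were the wider in 16 of the 19 regions. Over all 19, the median ratio of replicate 1 width to replicate 2 width was 1.37, against 1.46 over the autosomes. Replicate 2 peaks were the wider in the other 3. These were both regions beside the gene position (ratios 0.671 and 0.708) and the one 74.3 kb below it (0.716). That last region held 2 peaks of replicate 1, of 765 and 728 bp. Only the 728 bp peak was set against the 1017 bp peak of replicate 2. The largest midpoint offset is from the same pair. At both strong regions that were widest in replicate 1, at 331 and 134 kb, the peak of replicate 2 was also wide, at 1701 and 1775 bp.

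A difference in recurrence between the locus and other autosomal peaks was not detectable. Of the 24 replicate 1 peaks, 20 overlapped a replicate 2 peak (83.3%, exact interval 62.6 to 95.3%), against 69.9% over the autosomes. Of the 44 replicate 2 peaks, 19 overlapped a replicate 1 peak (43.2%, interval 28.3 to 59.0%), against 42.6%. Both intervals contain the autosomal share. Unshared peaks were weak, with a median score of 58.5 for the 4 of replicate 1 and 62.8 for the 25 of replicate 2, against 105 and 199.84 for the shared ones. None of them was in the best 10% of its list, but unshared peaks were weak over the other autosomal sequence too. By rank as a percent of the list, the median unshared peak of the locus was at 82.1 in replicate 1 and 75.5 in replicate 2. Elsewhere on the autosomes these medians were 71.1 and 64.6. The best-scoring unshared peak of replicate 2, from 56000344 to 56000806, scored 183.82 (rank 4751), 10.4 kb from the nearest replicate 1 peak and 70.6 kb above the gene position.

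Many of the unshared peaks lay near a peak of the other list. This held for 3 of 4 in replicate 1 and 13 of 25 in replicate 2 (52%) within 5 kb, against 19.5 and 15.1% of unshared autosomal peaks. These values restate the density of the locus in part.

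Runs of close peaks were frequent in each list. Of the replicate 1 peaks in the window, 9 of 24 (37.5%, interval 18.8 to 59.4%) were in runs of 3 or more under 10 kb apart, against 7.73% over the autosomes. Of the replicate 2 peaks, 20 of 44 were (45.5%, interval 30.4 to 61.2%), against 16.9%. For replicated regions the share was 3 of 19 (15.8%, interval 3.38 to 39.6%), against 5.99%, an interval that contains the autosomal share. Close spacing follows in part from the density of the locus, so these shares are not separate from it. Their intervals treat peaks as independent, although a run adds 3 or more at once, and are too narrow. The 9 peaks of replicate 1 came from runs of 5 and 4. In the run of 5 some neighbours almost touch, such as those from 55854915 to 55855679 and from 55855700 to 55856427. Joining such neighbours within a list before counting runs was not tried, and the count of runs depends on it. The fullest 200 kb of the locus held 7 replicated regions, where the autosomal maximum was 17.

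Each of the 19 replicated regions also held exactly 1 of the 1 bp positions that the authors deposited in a further list. The window had 19 positions out of 10625, all of them inside a peak of each replicate. They lay a median of 73.5 bp from the nearest replicate 2 midpoint and 127.5 bp from the nearest replicate 1 midpoint. Over the whole list, 10625 of 10625 positions lie in replicate 2 peaks that overlap replicate 1, so their presence here is no separate evidence on the regions.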

How the data were processed

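Pitx1 ChIP-seq peaks from 2 libraries of embryonic hindlimb buds were analysed. The submitters' processing notes name build mm9 and, with no roles, MACS 1.4.2, bedtools 2.16.2, Bowtie 0.12.8 and CASAVA 1.8.2 and 1.7. How the caller was set and whether it used the input is not stated in those notes or the labels. The deposited lists give a peak score from the authors' caller for each peak, 1 list per library. A further list deposited by the authors gives other information, 1 bp positions without values, made by steps that the labels do not describe.

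Peaks were assigned by midpoint and coordinates counted from 1. Densities use chromosome lengths up to the last peak, and ratios have exact conditional 95% intervals, called when they exclude 1. Shares have exact Clopper-Pearson intervals. Runs are 3 or more peaks under 10 kb apart. The pairing of lists by overlap and the density ratio were tested on simulated lists with peaks placed independently. The other functions were not. Named regions are the 12 with the lowest sum of ranks, the region nearest the gene position, the best unshared peak of each list and the peaks beside the gene position; a few others were singled out after their values were seen. The window and choices were made with earlier results of these data known. Calculations used scipy 1.17.1, pandas 2.3.3 and numpy 2.4.6 in Python 3.11.15, and figures matplotlib 3.10.9. The planned motif search and placement of peaks against genes were not run. Alternatives varied the overlap, score threshold, list length, window, reference and replicate.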

Additional observations from a re-analysis of the deposited data

How the results depend on the processing

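No paired analysis was possible because no peak list of the inputs, whose numbers match those of the ChIPs, was used here. The density ratio of the Pitx1 locus to the autosomes stayed above 1, with its interval, under all 11 alternatives run, from 2.55 in the window widened by 500 kb on each side to 5.48 within 200 kb of the gene position. Leaving out a replicate gave ratios of 3.70 to 4.00. The widened window held 22 replicated regions, among them the same 19, so its ratio does not show an excess beyond the locus. Replicated regions numbered 11 in the best 50% of each list and 6 in the best 25%, which hold fewer peaks, and 14 to 17 under the other definitions. The median percentile was 34.2 with reciprocal overlap of 50%, 50.9 with midpoints within 250 bp, and 36.3 to 39.7 with a replicate left out, so on which side of the autosomal median it lies depends on the definition; the cause was not tested. With reciprocal overlap 58.3% of replicate 1 peaks were shared, and with equal numbers of best peaks 70.8% of replicate 2 peaks, where replicate 2 alone was shortened (24 of its peaks in the locus in place of 44); the cause was not tested. Windows as full as the locus made up 0.671 to 1.79% with a replicate left out. Unknown read depth limits statements on peaks called in 1 library.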
